A study of Mus musculus with 18 samples.

Results

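The genes described here are the proteasome genes of the mouse, picked by name. The proteasome as the subject was chosen with earlier results of these data known. They are the gene symbols that begin with Psma, Psmb, Psmc, Psmd, Psme, Psmf or Psmg followed by a digit, without the pseudogene names that end in -ps. The rule found 50 of the 30850 gene names that had at least 1 UMI (unique molecular identifier, 1 counted mRNA molecule) in the kept cells of the stomach. By role, 8 of them encode alpha subunits of the 20S core, 7 encode its constitutive beta subunits and 3 encode the beta subunits of the immunoproteasome. The 19S regulator was represented by 9 genes of its base and 8 of its lid. The remaining genes were 5 activators, 7 assembly factors, 1 inhibitor and 2 interacting proteins that are no subunits. In each fit 49 of the 50 passed the filter on low counts, and the exception was Psma8, an alpha subunit of the testis, with 1 UMI in dataset 1 and 7 UMIs in dataset 2.

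Gastric units of male C57BL/6J mice with the genotype WT, 10 weeks old, were dissociated and single cells were sorted into plates of 384 wells and measured by Quartz-Seq2, a single-cell RNA-seq method that counts polyA RNA by UMI. Dataset 1 held cells of corpus and antrum and dataset 2 cells of the corpus alone, each as 2 pools of 3 mice made by different operators. The pools were named tube1 and tube2 in dataset 1, with 3 plates each, and K and T in dataset 2, with 6 plates each. The study asked which genes and pathways accompany the passage of isthmus progenitor cells to pit, neck and parietal cells. In both datasets dead cells were gated out by a dye, and in dataset 2 only cells positive for Hoechst33342 were taken. No treatment is named in the labels, so that all comparisons are between cell types of the same mice, and animals within a pool cannot be told apart.

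The proteasome is the protease that degrades proteins marked with ubiquitin. Its 20S core is a stack of alpha and beta rings, with the catalytic sites on Psmb5, Psmb6 and Psmb7, and the 19S regulator binds, unfolds and feeds in the substrates. In the immunoproteasome, Psmb8, Psmb9 and Psmb10 take the places of Psmb5, Psmb6 and Psmb7, which changes the peptides made and favours those presented on MHC class I, and interferon gamma is known to induce these genes together with the activators Psme1 and Psme2. Nfe2l1 is the transcription factor known to raise all constitutive subunits together when proteasome activity falls. In the stomach, pit cells cover the luminal surface, neck cells secrete mucin inside the gland, chief cells secrete pepsinogen, parietal cells secrete acid, and the isthmus between pit and neck holds the dividing progenitors.

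RefSeq promoters (250 bases before to 50 after the start site, GRCm38.p6) were found for 42 of the 50 genes. The bases before the start site are shown for the 3 immunoproteasome subunits and for Psmb5 and Psmb6, since the results below turn on the balance between these forms. Capitals mark a match to a gamma-activated sequence (TTCNNNGAA) or to the core of the antioxidant response element (TGACNNNGC), the motif bound by Nfe2l1 and Nfe2l2, on either strand, and each run ends at the base before the start site.
Psmb8 (chr17:34198075-34198194, + strand): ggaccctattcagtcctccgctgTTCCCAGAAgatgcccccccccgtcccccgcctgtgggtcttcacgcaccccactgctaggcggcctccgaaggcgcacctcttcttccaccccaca
Psmb9 (chr17:34187331-34187450, - strand): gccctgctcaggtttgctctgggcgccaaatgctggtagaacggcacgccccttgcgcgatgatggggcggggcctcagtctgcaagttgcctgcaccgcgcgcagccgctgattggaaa
Psmb10 (chr8:105938393-105938512, - strand): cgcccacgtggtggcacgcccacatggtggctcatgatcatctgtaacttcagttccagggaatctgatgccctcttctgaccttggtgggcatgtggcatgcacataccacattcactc
Psmb5 (chr14:54617996-54618115, - strand): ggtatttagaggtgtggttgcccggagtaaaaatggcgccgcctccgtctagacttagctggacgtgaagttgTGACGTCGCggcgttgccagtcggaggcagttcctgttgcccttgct
Psmb6 (chr11:70525237-70525356, + strand): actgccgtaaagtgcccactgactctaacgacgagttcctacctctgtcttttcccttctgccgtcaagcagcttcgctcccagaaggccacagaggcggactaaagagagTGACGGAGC
The match in Psmb8 began at base -97, that in Psmb5 at base -47 and that in Psmb6 at base -9, counted from the start site. Over the 25 constitutive subunit genes with a promoter, 16.0% held the antioxidant response element core, against 13.99% of all 27025 genes with a promoter of this length. The CCAAT box, the site of the factor NF-Y, was held by 10 of these 25 genes and by 41.06% of all genes. An interferon-stimulated response element (GAAANNGAA, either strand) was found in 16.0% of the constitutive genes, in 9.76% of all genes and in none of the 3 immunoproteasome genes. The gamma-activated sequence was held by 4.0% of the constitutive genes and by 9.55% of all genes, and among the immunoproteasome genes only Psmb8 held it in this window.

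The authors kept 491 cells of dataset 1 and 3993 of dataset 2, those with at least 2500 detected genes. A plate held between 3054370 and 5346035 UMIs in dataset 1 and between 10540256 and 12850942 in dataset 2. Clusters are those of the authors. In dataset 2, 1285 isthmus cells, 1247 neck cells, 702 parietal cells, 291 pre-pit cells (Gkn2-positive cells before the mature stage), 180 chief cells and 121 mature pit cells were compared. In dataset 1, which is smaller, the corpus mature pit cells numbered 26, the neck cells 45 and the isthmus-like cells 53, the last named by Stmn1, Hmgb2 and Tcf19. Cell types were compared on UMIs summed per type and pool, with n = 2 pools in each group, and levels are given as CPM (the field's usual counts per unit of library size, here after TMM scaling). TMM is a scaling that sets most genes of a pair of samples to no difference, while scaling to total UMIs counts every transcript. The choice mattered more for some types of dataset 2 than for others. Against isthmus, the median log2 fold change of all genes went from -0.07 with TMM to -0.42 with total UMIs in mature pit cells. It went from -0.06 to -0.95 in chief, from -0.05 to -0.55 in parietal and from 0.06 to -0.01 in neck cells. The cause of these moves was not tested.

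Taken over all their clusters, isthmus cells gave a larger share of their RNA to the constitutive proteasome than any other named cell type of dataset 2. The UMIs of the 31 tested constitutive subunits of core and regulator were summed in each cell and divided by all UMIs of the cell. The median was 59.3 per 10000 UMIs in isthmus cells of pool K and 59.5 in pool T. Pre-pit cells held 54.5 and 56.6, mature pit cells 49.7 and 48.5, and neck cells 42.3 and 40.4. Parietal cells held 38.0 and 41.1, and chief cells, which are loaded with pepsinogen mRNA, held the lowest value of the 6 epithelial types at 26.3 and 24.6. The 2 pools of each of these 6 types did not overlap with those of its neighbour in this order, except that the parietal pool T (41.1) lay above the neck pool T (40.4). As a ratio to isthmus and averaged over the pools, the share came to 0.826 for mature pit cells and to 0.696 for neck cells. Parietal cells carried 20.5% and 18.2% of their UMIs on mitochondrial genes, against 4.33% and 4.20% in isthmus cells, and without these the parietal share was 48.2 and 51.1. The median UMIs per cell were 36870 and 38180 in isthmus, 43360 and 44630 in mature pit, and 22200 and 22890 in neck cells, and the part of depth in these shares was not tested.

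**Figure D1:**
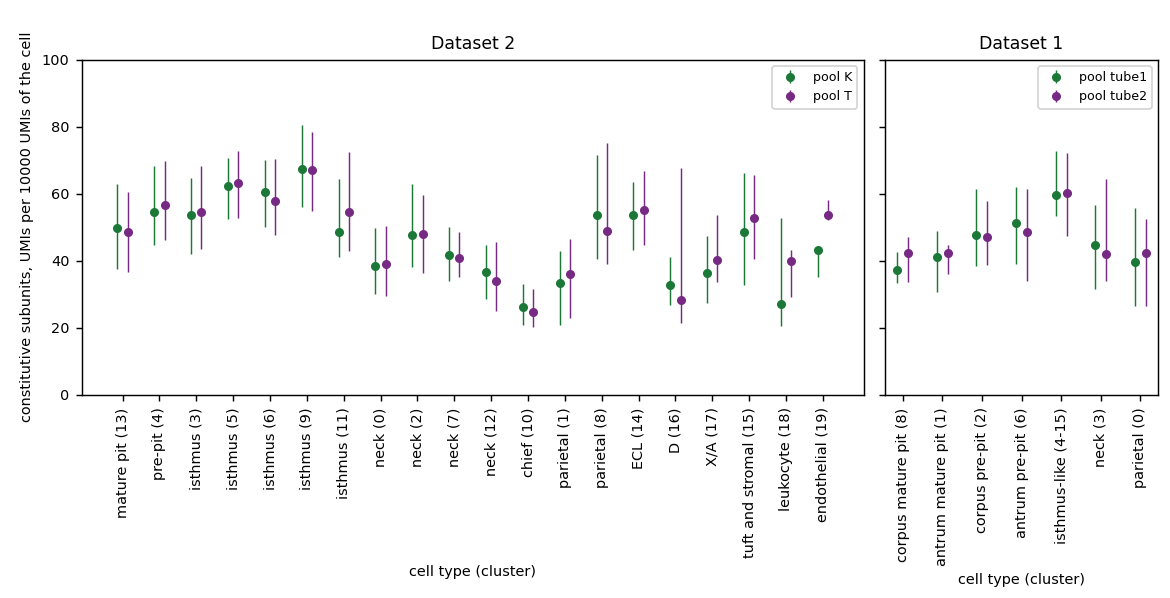
Share of the UMIs of a cell that fell on the 31 constitutive subunits (y axis, per 10000 UMIs) for each cluster (x axis, authors' number in brackets), by pool. Points are medians over cells and bars run from the lowest to the highest decile of cells. Isthmus cluster 9 is the highest in both pools of dataset 2 (67.3 and 67.0) and chief cluster 10 the lowest (26.3 and 24.6).

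The clusters of 1 cell type differed as well. Among the isthmus clusters, cluster 9, with 89.9% of its cells called in G2M phase by the authors, held 67.3 and 67.0 per 10000 UMIs. Cluster 5 (62.4 and 63.3) and cluster 6 (60.4 and 57.8) followed, then cluster 3 (53.7 and 54.6) and cluster 11 (48.6 and 54.7), in which 85.5% of cells were called in G1 phase. Isthmus clusters 3 and 11 thus lay below pre-pit cells (54.5 and 56.6) in both pools. Neck cluster 2 lay highest among neck clusters at 47.7 and 48.1, and cluster 12 lowest at 36.7 and 33.8. The parietal clusters were far apart, with 53.7 and 49.0 in cluster 8 and 33.2 and 36.0 in cluster 1. Among the rare cells, ECL cells (histamine-secreting endocrine cells, cluster 14) had 53.6 and 55.2, tuft and stromal cells 48.7 and 52.6, X/A cells (ghrelin cells) 36.4 and 40.2, and D cells (somatostatin cells) 32.6 and 28.4. The clusters were made from the same counts, so that these differences describe the clusters and are no test.

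Neck cells had lower levels of nearly the whole constitutive proteasome than isthmus cells. Of the 49 members tested, 38 were lower and 2 higher, where 24.3% of the 13894 genes tested were lower and 26.4% higher. All 9 base genes and all 7 constitutive beta genes fell, as did 6 of 7 alpha genes and 7 of 8 lid genes, so that 29 of the 31 constitutive subunits fell. Their median log2 fold change was -0.45, and the median of all genes was 0.06. The 2 not called were Psma3 (26.6 and 21.5 CPM in neck, 25.8 and 25.3 in isthmus) and Psmd8 (144 and 152 in neck, 148 and 163.6 in isthmus). Scaling to total UMIs left the median at -0.52, and 36 of the 38 lower calls held under each of the 7 alternatives.

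Psmd14, the deubiquitinase of the lid, stood at 67.8 CPM in neck cells of pool K and 66.7 in pool T, and at 114 and 116 in isthmus cells. This is a log2 fold change of -0.77 (SE 0.08, adjusted p = 3.98e-06). The alpha subunit Psma5 stood at 82.05 and 78.1 CPM in neck and at 135 and 132 in isthmus cells, a fold of -0.74 (SE 0.08, adjusted p = 5.31e-06). Neck and isthmus did not overlap for either gene. Psme3, the nuclear activator that lets small proteins be degraded without ubiquitin, had 80.8 and 79.7 CPM in neck and 134 in both isthmus pools (-0.74, SE 0.08, adjusted p = 3.64e-06). The catalytic subunits moved less. Psmb5, the chymotrypsin-like subunit, had 113 and 99.9 CPM in neck against 137 and 135 in isthmus cells (-0.35, SE 0.08). Psmb7, the trypsin-like subunit, fell by 0.31 on the log2 scale (SE 0.08) and Psmb6, the caspase-like subunit, fell by 0.24 (SE 0.08). Of the assembly factors 5 of 7 fell, among them the chaperones Psmg2 (39.03 and 39.26 CPM against 64.4 and 59.0) and Psmd5 (43.0 and 41.9 against 60.0 and 61.5), and the inhibitor Psmf1 fell as well (-0.35, SE 0.08). The largest fall was that of Psmc3ip, which is no subunit but a cofactor of meiotic recombination, with 1.63 and 2.17 CPM in neck and 10.3 in both isthmus pools (-2.44, SE 0.20).

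Of the 5 members tied to antigen presentation, Psmb8 and Psme1 were higher in neck cells, Psmb9 was lower, and Psmb10 and Psme2 were not called. Psmb8 stood at 5.84 and 8.19 CPM in neck and at 3.53 and 3.51 in isthmus cells, and was higher by 0.99 (SE 0.26, adjusted p = 0.00572). Psme1, the alpha subunit of the interferon-induced activator, was higher by 0.41 (SE 0.09), with 79.6 and 82.98 CPM against 62.7 and 59.3. These were the 2 members called higher, and both were called under all 7 alternatives. Psmb9 fell, from 12.2 and 13.7 CPM in isthmus to 7.86 and 9.82 in neck (-0.55, SE 0.16, adjusted p = 0.00997). Psmb10 was not called (28.2 and 29.3 CPM in neck, 25.7 and 26.5 in isthmus), nor was Psme2, the partner of Psme1 (71.2 and 67.9 against 74.3 and 76.1). On the mouse genome GRCm39 (GENCODE M39), Psmb9 (chr17:34400960-34406738, - strand) overlaps Tap1 on the other strand, Psme1 overlaps Emc9 and Psme2 overlaps Rnf31, and whether the counting used strand is not given in the sources used here, so that reads of such a pair cannot be told apart. The leukocyte markers Cd3e, Cd4, Cd52, Cd74, Lyz2, Ptprc and Tyrobp summed to 5.17 and 1.987 CPM in neck and 2.54 and 1.24 in isthmus cells, with 4 of 7 having a UMI in each type and Cd3e, Cd4 and Tyrobp at 0 in both. Their part in these results was not tested.

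**Figure D2:**
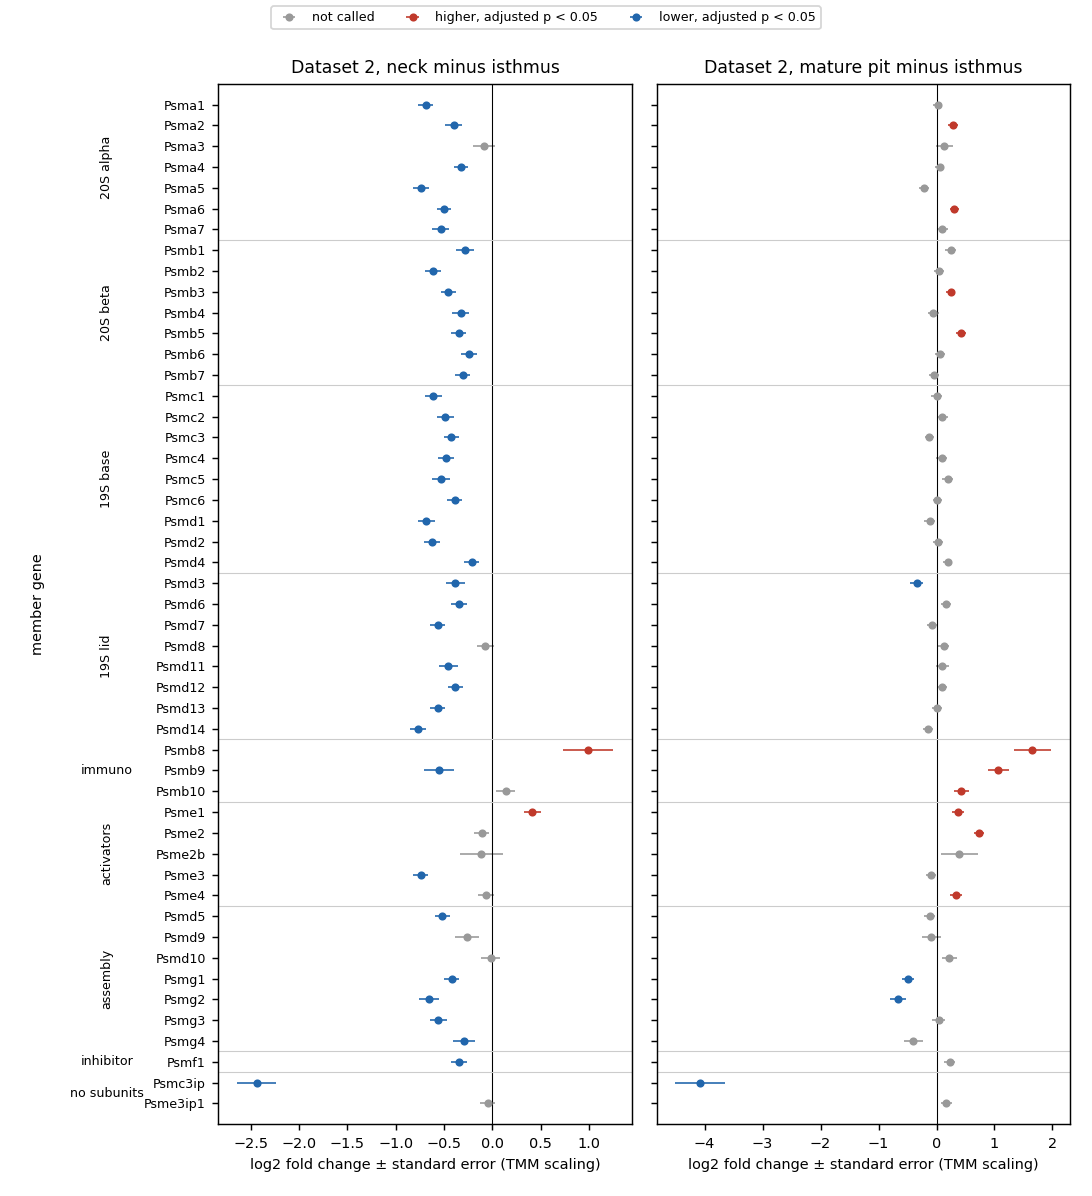
Log2 fold change (x axis) of each of the 49 tested members (y axis, grouped by role) in dataset 2, neck minus isthmus on the left and mature pit minus isthmus on the right. Points are edgeR estimates with TMM scaling, bars are standard errors, red and blue mark genes called higher and lower, and the x axes differ. On the left 38 members are lower and 2 higher, and on the right 10 are higher and 4 lower, a split that became 3 higher and 29 lower when the right panel was scaled to total UMIs.

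Mature pit cells did not follow the neck pattern, and the answer for their constitutive subunits depended on the scaling. With TMM, 10 members were higher and 4 lower than in isthmus, against 17.9% and 20.1% of all genes tested. With total UMIs, 3 were higher and 29 lower, against 9.01% and 40.9% of all genes. The constitutive median was 0.05 with TMM (4 higher, 1 lower) and -0.29 with total UMIs (none higher, 21 lower), and the median of all genes moved from -0.07 to -0.42. The constitutive median thus lay above that of all genes with either scaling. The constitutive subunits called higher with TMM were Psma2, Psma6, Psmb3 and Psmb5, and the one called lower was the lid subunit Psmd3 (92.2 and 99.1 CPM against 113 and 130). With the pool as a replicate block, Psmb1 was also called higher (0.24, adjusted p = 0.0136 in edgeR), and Psma5 (-0.21, adjusted p = 0.0494) and the chaperone Psmg4 (-0.40, adjusted p = 0.0468) were also called lower. Psmb5 stood at 179 and 183 CPM in mature pit and 137 and 135 in isthmus cells (0.41, SE 0.09, adjusted p = 0.00175), and it was not called with total UMIs. Psmb6 (217 and 238 CPM against 215 and 224) and Psmb7 (222 and 220 against 226 and 231) were not called with TMM. The assembly chaperones Psmg1 and Psmg2 fell with TMM and under all 7 alternatives. Psmg2 had 46.3 and 32.4 CPM in mature pit against 64.4 and 59.0 in isthmus cells (-0.67, SE 0.13), and Psmg1 had 37.2 and 37.4 against 52.4 and 52.5 (-0.49, SE 0.10). Psmc3ip had 3 UMIs in all mature pit cells and 685 in isthmus cells, which put isthmus higher by a ratio of 17.2 (exact 95% interval 5.86 to 83.6, for counting error only).

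The immunoproteasome subunits and their activator were higher in mature pit than in isthmus cells. Psmb8 stood at 9.09 CPM in pool K and 12.8 in pool T, against 3.53 and 3.51 in isthmus cells (1.66, SE 0.33, adjusted p = 0.00116). Psmb9 stood at 29.98 and 24.6 CPM against 12.2 and 13.7 (1.06, SE 0.18, adjusted p = 0.000332). Psme2 had 129 and 122 CPM against 74.3 and 76.1 (0.74, SE 0.08, adjusted p = 1.25e-05). The mature pit pools lay above the isthmus pools for all 3 genes, and these were the 3 members called higher with total UMIs too, at 1.30, 0.72 and 0.39. Psmb10 (32.7 and 37.1 CPM against 25.7 and 26.5, 0.43, SE 0.13) and Psme1 (88.1 and 70.2 against 62.7 and 59.3, 0.37, SE 0.10) were called higher with TMM and not with total UMIs, and the fold of Psme1 was 0.49 in pool K and 0.24 in pool T. Psme4, the activator of the nucleus and of spermatids, was also called with TMM and not with total UMIs (78.1 and 77.4 CPM against 59.3 and 63.5, 0.34, SE 0.10).

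The UMIs were also counted per cell. In mature pit, Psmb8 had 56 UMIs in 25 of 121 cells, with 39.3% of them in 5 cells, Psmb9 had 135 UMIs in 54 cells with 23.7% in 5 cells, and Psmb10 had 176 UMIs in 85 cells. The leukocyte markers summed to 17.7 CPM in mature pit cells of pool K and 0.357 in pool T, against 2.54 and 1.24 in isthmus cells. Only 1 of the 7, Cd74, had a UMI in mature pit cells, while Cd3e, Cd4, Cd52, Lyz2, Ptprc and Tyrobp were at 0. The endothelial markers Cdh5, Kdr and Pecam1 summed to 0.454 and 0 CPM there, against 4242 and 4170 in the endothelial cluster. The fold of Psmb8 was 1.36 in pool K and 1.86 in pool T, and that of Psmb9 was 1.29 and 0.85. The part of RNA from other cells in these values was not tested.

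Set directly against each other, mature pit cells had higher levels of most constitutive subunits than neck cells. Of the members, 35 were higher in mature pit than in neck cells and 1 lower, against 22% and 24.7% of all genes tested, and 28 of the 31 constitutive subunits were among the higher ones (median 0.56, all genes -0.10). With total UMIs the constitutive median was 0.27 and that of all genes -0.38, where 17 constitutive subunits were still called higher, and 22 of the 35 calls held under all 7 alternatives. The alpha subunit Psma6 had 231 and 239 CPM in mature pit and 134 in both neck pools (0.81, SE 0.08, adjusted p = 2.1e-06). Psmb5 was higher by 0.77 (SE 0.09), Psme2 by 0.85 (SE 0.09) and Psmb9 by 1.62 (SE 0.19). Psmb6 (0.30, SE 0.09) and Psmb7 (0.26, SE 0.08) were called higher with TMM, but the fold of Psmb7 was -0.03 with total UMIs. Psmb8 was not called (9.09 and 12.8 CPM against 5.84 and 8.19, adjusted p = 0.103), nor were Psmb10 (32.7 and 37.1 against 28.2 and 29.3) and Psme1 (88.1 and 70.2 against 79.6 and 82.98). The member called lower was Psmc3ip, with 3 UMIs in mature pit and 65 in neck cells, a ratio of 3.15 (exact 95% interval 1.03 to 15.7).

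The isthmus is mostly made of cycling cells, and cluster 11 is its one cluster called mainly in G1 phase, so that it was used as a second reference. In the comparisons of clusters, a CPM is the mean over the clusters of a side, while a fold is taken between the means of their log2 levels. Against cluster 11, neck cells had 29 members lower and 3 higher, against 23.7% and 19.8% of the 12922 genes tested, and 26 constitutive subunits fell (median -0.32). Psma5 had 83.2 and 83.01 CPM in neck against 137 and 130 in cluster 11 (-0.71, SE 0.08), Psma1 143 and 141 against 203 and 204 (-0.53, SE 0.07), Psmd14 72.1 and 73.2 against 102 and 104 (-0.51, SE 0.07), and Psmb2 156 in both pools against 206 and 227 (-0.49, SE 0.07). Of the catalytic subunits Psmb7 fell by 0.23 on the log2 scale (SE 0.06) and Psmb5 fell by 0.20 (SE 0.07, -0.09 in pool K and -0.30 in pool T), while Psmb6 was not called (205 and 214 CPM against 206 and 232). Psmb8 was higher in neck cells (6.98 and 9.25 CPM against 2.21 and 2.73, 1.58, SE 0.38), Psme1 was higher by 0.19 with TMM (SE 0.08, 0.07 in pool K and 0.30 in pool T) and not called with total UMIs, and Psmc3ip was higher by 1.96 (SE 0.55, 1.22 in pool K and 2.34 in pool T). Psmb9, Psmb10 and Psme2 were not called there, at 0.09, -0.16 and -0.08.

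Mature pit cells against cluster 11 had 26 members higher and 1 lower with TMM, against 17.4% and 11.6% of all genes, but 3 higher and 7 lower with total UMIs, against 6.9% and 35.3%. The constitutive median was 0.28 with TMM and -0.11 with total UMIs, where all genes went from 0.00 to -0.39. Psmb8 (10.1 and 14.7 CPM against 2.21 and 2.73, 2.31, SE 0.44), Psmb9 (33.5 and 28.3 against 10.3 and 7.73, 1.80, SE 0.28) and Psme2 (144 and 140 against 78.8 and 81.6, 0.82, SE 0.09) were higher under all 7 alternatives. Psmb5 was higher by 0.60 with TMM (SE 0.09) and Psmb6 by 0.23 (SE 0.09), with Psmb6 at -0.15 with total UMIs. Psmb7, Psmb10 and Psme1 were not called with TMM, at 0.07, 0.25 and 0.20, and Psmb7 was at -0.31 with total UMIs. The assembly chaperone Psmg1 fell with TMM (41.6 and 43.0 CPM against 50.8 and 54.1, -0.31, SE 0.12), and with the pool as a replicate block 2 members were lower in place of 1.

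Isthmus clusters 5 and 6 against clusters 3, 9 and 11 had 11 members higher and 1 lower, against 17.3% and 13.9% of all genes, and 6 constitutive subunits rose, with a median of 0.07. The rises were largest in Psmc3ip (13.6 and 14.0 CPM against 6.19 and 7.16, 2.07, SE 0.22), Psmb9 (15.6 and 19.3 against 10.8 and 9.82, 0.76, SE 0.16, 0.49 in pool K and 0.96 in pool T), Psmg2 (79.9 and 73.7 against 58.3 and 54.4, 0.46, SE 0.08) and Psme3 (165.4 and 160.5 against 127 and 130, 0.35, SE 0.05). The clusters of a side differed in Psmc3ip, which stood at 5.18 and 6.08 CPM in cluster 5 and 22.0 in both pools of cluster 6, and at 17.3 and 18.3 in cluster 3, 0.567 and 2.71 in cluster 9 and 0.736 and 0.455 in cluster 11. Psme1 was the member that fell (62.5 and 62.2 CPM against 74.4 and 68.7, -0.19, SE 0.06). None of Psmb5, Psmb6, Psmb7, Psmb8, Psmb10 and Psme2 was called, with folds between -0.17 and 0.45. Cluster 5 was called in G2M phase in 100% of its cells and cluster 6 in 52.6%, but cluster 9 in 89.9%, so that this contrast is not one of phase.

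Pre-pit cells were set against isthmus cells alone. They had 10 members higher and 3 lower with TMM, against 12.3% and 15.5% of all genes, and none higher and 13 lower with total UMIs, against 4.58% and 27.3%. Psmb9 fell to 5.69 and 7.14 CPM (-1.01, SE 0.20, adjusted p = 0.00198), and Psmb8 was at 2.11 and 1.61 CPM without a call (-0.93, SE 0.40). Psmb10 (22.6 and 26.4 CPM), Psmb6, Psmb7 and Psme1 were not called. With TMM the rises were largest in the alpha subunit Psma3 (37.7 and 34.2 CPM against 25.8 and 25.3, 0.49, SE 0.12), Psme4 (0.35, SE 0.09), the assembly factor Psmd10 (0.33, SE 0.11) and the beta subunit Psmb3 (0.31, SE 0.08). Psmb5 (0.31, SE 0.08) and Psme2 (0.26, SE 0.08) were also called higher with TMM, and none of these rises was called with total UMIs. Psmg2 (47.4 and 45.0 CPM, -0.42, SE 0.11) and Psmc3ip (0.633 and 0.892 CPM, -3.72, SE 0.31) fell under all 7 alternatives.

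Chief cells had 28 members lower and 2 higher than isthmus, against 29.5% and 25.9% of all genes, with 16 constitutive subunits lower and 1 higher (median -0.29, and -1.18 with total UMIs, where all genes went from -0.06 to -0.95). Psma5 stood at 53.1 and 44.7 CPM (-1.47, SE 0.10, adjusted p = 4.21e-08), Psmb9 at 2.24 and 3.08 (-2.24, SE 0.31), Psmc3ip at 2.24 and 1.93 (-2.32, SE 0.33) and the chaperone Psmg4 at 10.1 and 9.24 against 19.8 and 21.8 (-1.12, SE 0.19). Psmb10 (-0.74, SE 0.16), Psme2 (-0.61, SE 0.10) and Psme1 (-0.30, SE 0.11) fell as well, while Psmb5, Psmb6, Psmb7 and Psmb8 were not called with TMM, at 0.02, -0.11, -0.05 and 0.12. The 2 higher with TMM were Psme4 (132 and 111 CPM against 59.3 and 63.5, 0.97, SE 0.10) and the lid subunit Psmd8 (190 and 206 against 148 and 163.6, 0.35, SE 0.10), and neither was called with total UMIs.

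Parietal cells differed from isthmus in members of both directions, and the split depended on the scaling. With TMM 8 were higher and 13 lower, against 35.2% and 36.7% of all genes, and with total UMIs 2 were higher and 41 lower, against 20.8% and 55.7%. Psme1 rose from 62.7 and 59.3 CPM in isthmus to 149 and 148 in parietal cells (1.28, SE 0.09, adjusted p = 9.95e-09), and Psmd8 from 148 and 163.6 to 247 and 265 (0.72, SE 0.09), and these 2 were called under all 7 alternatives. The lid subunit Psmd12 (0.63, SE 0.07), Psme4 (0.45, SE 0.08), Psma7 (0.37, SE 0.09), Psmb5 (0.32, SE 0.08), Psmd10 (0.29, SE 0.10, 0.15 in pool K and 0.44 in pool T) and Psmc1 (0.23, SE 0.09) were called higher with TMM and not with total UMIs, and Psmb5 was at -0.18 with total UMIs. All 13 lower calls held under the 7 alternatives, among them Psmb9 (2.25 and 2.62 CPM, -2.41, SE 0.19), Psmc3ip (1.42 and 1.31, -2.90, SE 0.22), Psma5 (63.0 and 68.4, -1.03, SE 0.08) and Psmb8 (1.36 and 2.18, -1.01, SE 0.31). Psmb6, Psmb7, Psmb10 and Psme2 were not called with TMM, at -0.05, 0.03, -0.20 and 0.17, although Psme2 was called higher with the pool as a replicate block (adjusted p = 0.0355).

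Each immunoproteasome subunit was also set against the constitutive subunit whose place it takes, as UMIs per 100 UMIs of the partner in the same cells, which does not depend on the scaling. Psmb9 stood at 5.70 and 6.10 per 100 Psmb6 UMIs in isthmus, 13.8 and 10.3 in mature pit, 4.16 and 5.39 in neck, 2.41 and 2.73 in pre-pit, 1.11 and 1.49 in chief and 1.10 and 1.20 in parietal cells. The mature pit pools were highest and did not overlap with any other of these 6 types, but isthmus cluster 6 alone stood at 8.90 and 11.4 and overlapped with them. Psmb8 stood at 2.58 and 2.60 per 100 Psmb5 UMIs in isthmus, 5.08 and 7.004 in mature pit and 5.16 and 8.20 in neck cells, so that mature pit and neck overlapped and both lay above isthmus. Psmb10 stood at 11.4 in both isthmus pools, 14.7 and 16.9 in mature pit and 15.1 and 16.0 in neck cells per 100 Psmb7 UMIs. Isthmus cluster 3 alone stood at 16.1 and 15.3 for Psmb10 and overlapped with mature pit. Isthmus clusters 5 (8.49 and 8.38), 6 (11.7 and 12.8), 9 (6.73 and 8.70) and 11 (14.4 and 13.8) lay below both mature pit pools. Against isthmus the mean ratio in mature pit cells of dataset 2 was 2.05 times as high for Psmb9, 2.33 times for Psmb8 and 1.38 times for Psmb10. In dataset 1, on fewer UMIs, Psmb9 stood at 7.95 and 6.59 in corpus mature pit against 5.11 and 4.50 in isthmus-like cells. Psmb10 (14.4 and 9.09 against 17.2 and 12.5) and Psmb8 (0 and 3.33 against 2.75 and 0.391) overlapped between these types.

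**Figure D3:**
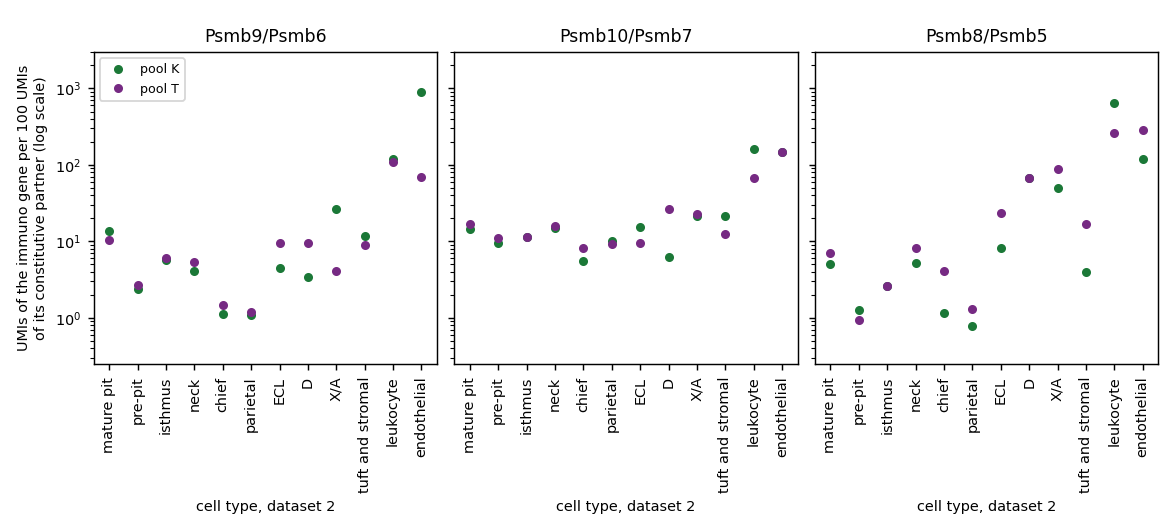
UMIs of an immunoproteasome subunit per 100 UMIs of the constitutive subunit whose place it takes (y axis, log scale) in each cell type of dataset 2 (x axis), 1 point per pool. For Psmb9 mature pit (13.8 and 10.3) lies above isthmus (5.70 and 6.10), and leukocytes (120 and 109) and endothelial cells lie above all epithelial types, on few UMIs.

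The non-epithelial clusters showed what cells rich in immunoproteasome look like by this measure, but they were tiny, with 13 leukocytes and 9 endothelial cells. Leukocytes had Psmb8 at 305 and 418 CPM, against 5.02 and 6.48 in the mean of the epithelial clusters (6.28, SE 0.39, adjusted p = 6.61e-16), on 26 and 29 UMIs. Psmb9 (141 and 173 CPM, 4.04, SE 0.47), Psmb10 (188 and 144, 2.44, SE 0.36), Psme1 (270 and 664, 2.28, SE 0.22, 1.51 in pool K and 2.86 in pool T), Psme2 (211 and 361, 1.58, SE 0.23) and Psme2b (3.38, SE 0.68) were the others called higher, all under the 7 alternatives. Psme2b is a near copy of Psme2, so that the counting could have split reads between them and its value is uncertain. In all 6 members were higher and 14 lower with TMM, against 9.26% and 11.1% of the 15295 genes tested, and 6 higher and 3 lower with total UMIs, against 10.5% and 6.91%. Among the lower ones with TMM were Psmb6 (117 and 158.7 CPM against 254 and 266), Psmb7 (117 and 216 against 263 and 268), Psmd3 (35.2 and 43.3 against 127 and 140), Psma4 (82.2 and 28.8 against 178 and 178) and the largest base subunit Psmd1, at 47.0 CPM in pool K and 0 in pool T. Psmg1 had 2 UMIs in leukocytes, and the ratio in favour of the epithelium was 4.51 (exact 95% interval 1.25 to 37.2). Psmb5 was not called (46.95 and 158.7 CPM against 172 and 167.6). The median of all genes was -1.01 with TMM, below the constitutive median of -0.73.

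Endothelial cells had Psmb8 at 125 and 281 CPM (5.51, SE 0.56), Psmb9 at 188 and 116 (3.97, SE 0.57), Psmb10 at 125 and 248 (2.64, SE 0.41) and Psme1 at 167.2 and 215 (1.06, SE 0.35), on as few as 6 UMIs in a pool. With TMM 4 members were higher and 12 lower, against 6.56% and 10.4% of all genes, and with total UMIs 4 were higher and none lower, against 8.97% and 3.31%. The lower ones with TMM included Psmb6 (20.9 and 165.5 CPM), Psmb7 (83.6 and 165.5), Psmd6 (20.9 and 49.6) and Psma5 (41.8 and 33.1), while Psmb5 and Psme2 were not called. Psme3 had 3 UMIs, a ratio of 5.17 in favour of the epithelium (exact 95% interval 1.77 to 25.1), and Psmg1 had no UMI in either pool, where 3 UMIs would be 27.7 CPM over both pools. Chief cell markers summed to 7371 and 13560 CPM in the leukocyte cluster and 5705 and 4021 CPM in the endothelial cluster, and their part in these values was not tested. The summed leukocyte markers were 41730 and 31430 CPM in the leukocyte cluster, so that the name held.

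In dataset 1, on fewer cells, neck cells again had less of the constitutive proteasome than isthmus-like cells. Of the members, 24 were lower and 1 higher, against 16.2% and 13.1% of the 10229 genes tested, and 20 of 31 constitutive subunits fell (median -0.45 with TMM and with total UMIs). The 24 were 63.2% of the 38 lower in neck cells of dataset 2, and all 24 were among those 38. With 38 of 49 members lower in dataset 2 and the overlap over all genes not counted, this is a description only. Psmd14 had 53.8 and 100 CPM against 139 and 148 (-0.84, SE 0.20, -1.36 in pool tube1 and -0.56 in pool tube2), Psmc1, an ATPase of the base, 80.7 and 71.3 against 138 and 120 (-0.77, SE 0.17), Psmd5 38.2 and 40.8 against 68.1 and 78.0 (-0.88, SE 0.18) and Psmg2 38.2 and 31.5 against 58.6 and 75.0 (-0.97, SE 0.24, -0.61 and -1.24). Psmb5, Psmb6 and Psmb7 were not called, at -0.10, -0.07 and -0.22, nor were Psmb9, Psmb10, Psme1 and Psme2, at -0.99, 0.51, 0.36 and 0.20. Psmb8 was called higher (7.08 and 15.7 CPM against 3.82 and 0.5001, 2.54, SE 0.84), but its fold was 0.82 in pool tube1 and 4.11 in pool tube2, on 5 UMIs in neck cells of pool tube1. Of the 7 Psmb8 UMIs of isthmus-like cells 6 lay in 1 cell, and the 22 of neck cells lay in 13 cells. The leukocyte markers summed to 9.91 and 27.8 CPM in neck and 12.7 and 2.0 in isthmus-like cells, with 1 of 7 and 2 of 7 having a UMI and Cd3e, Cd4, Cd52, Ptprc and Tyrobp at 0 in both types, and their part in the result was not tested. Of all 24 lower calls 8 held under the 7 alternatives.

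Corpus mature pit cells of dataset 1 had 15 members lower and 3 higher than isthmus-like cells, against 22.3% and 20.6% of all genes, and 38 lower and none higher with total UMIs, against 39.8% and 10.5%. The constitutive median was -0.31 (-0.76 with total UMIs), on the other side of 0 from the median of dataset 2 with TMM. The median of all genes was -0.08 with TMM and -0.53 with total UMIs. Unlike in dataset 2, the constitutive median thus lay below that of all genes with either scaling. The 3 members called higher with TMM were Psmb5 (186 and 170.9 CPM against 139 and 128, 0.42, SE 0.14, and -0.03 with total UMIs), Psma6 (285 and 299 against 230.5 and 219, 0.38, SE 0.12) and Psme2 (87.1 and 132 against 88.5 and 67.5, 0.49, SE 0.19), the last with a fold of -0.02 in pool tube1 and 0.97 in pool tube2. All 3 were among the 10 higher in mature pit cells of dataset 2, where the overlap over all genes was again not counted. Psmd3 (57.2 and 68.4 CPM against 139 and 134, -1.12, SE 0.16), Psmg4 (-1.43, SE 0.36) and Psmg1 (15.6 and 37.0 against 50.3 and 60.5, -1.10, SE 0.28, -1.66 and -0.70) fell, and Psmc3ip had 2 UMIs in mature pit cells, a ratio of 8.66 in favour of isthmus-like cells (exact 95% interval 2.25 to 73.8). Psmb9 (15.6 and 15.7 CPM against 12.1 and 10.5), Psmb10 (20.8 and 17.1 against 32.5 and 25.5), Psme1, Psmb6 and Psmb7 were not called. Psmb8 had no UMI in pool tube1 and 4 in pool tube2. The share per cell was 37.4 and 42.4 per 10000 UMIs in corpus mature pit, 44.6 and 41.99 in neck and 59.5 and 60.2 in isthmus-like cells, so that here mature pit and neck overlapped.

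Directly against neck cells, corpus mature pit cells of dataset 1 had 10 members higher and 5 lower with TMM, against 21.1% and 22.1% of all genes, and 1 higher and 14 lower with total UMIs, against 13% and 39.2%. Psma6 (285 and 299 CPM against 161 and 166.7, 0.83, SE 0.13) was higher under all 7 alternatives. Called higher with TMM and not with total UMIs were Psmb9 (15.6 and 15.7 against 5.66 and 5.56, 1.46, SE 0.51), Psma2 (0.60, SE 0.14), Psmb1 (0.58, SE 0.13) and Psmb5 (0.52, SE 0.15) among others. Psmb10 was lower (20.8 and 17.1 CPM against 32.6 and 47.2, -1.10, SE 0.30, -0.64 in pool tube1 and -1.44 in pool tube2), as were Psme1 (-0.63, SE 0.18, -0.43 and -0.80), Psmg4 (-1.48, SE 0.38), Psmg1 (-0.96, SE 0.31, -1.72 and -0.40) and Psmd3 (-0.46, SE 0.18). Psmb6, Psmb7, Psmb8 and Psme2 were not called. In the antrum, mature pit against pre-pit cells had no member higher and 2 lower, Psma5 (81.4 and 73.6 CPM against 108 and 145, -0.67, SE 0.17, -0.40 and -0.97) and Psma7 (203 and 179 against 239 and 281, -0.43, SE 0.14, -0.24 and -0.65), against 8.29% and 5.66% of all genes. With the pool as a replicate block 1 member was lower there, and Psma7 was not called (adjusted p = 0.0567 in edgeR). The immunoproteasome subunits were not called in the antrum, and all 20 Psmb8 UMIs of the antrum pre-pit cells lay in 4 cells.

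**Figure D4:**
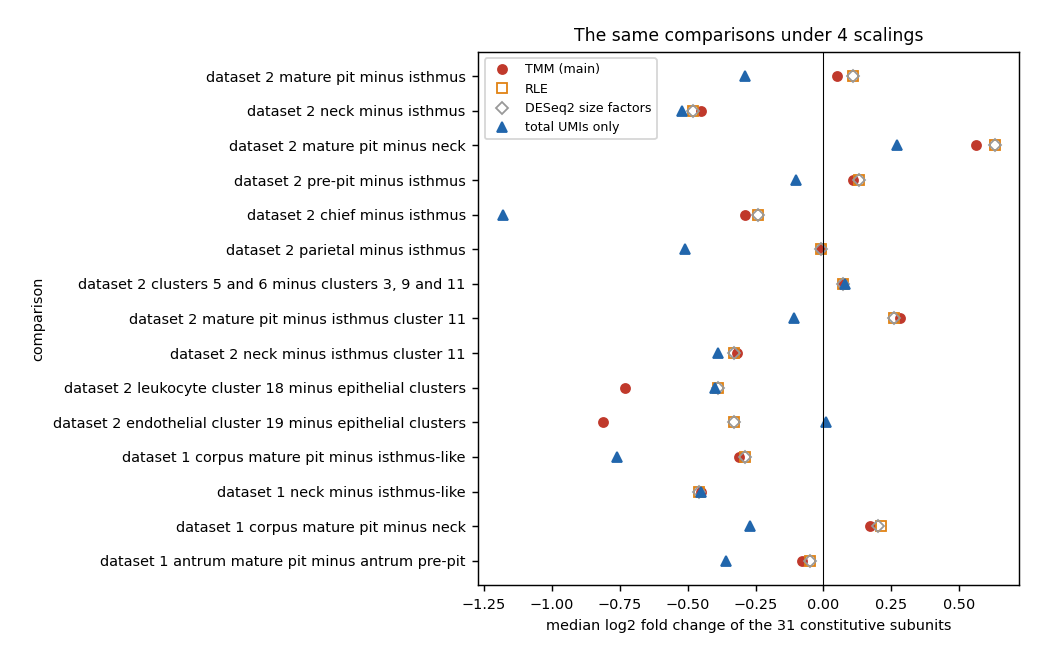
Median log2 fold change of the 31 constitutive subunits (x axis) in each of the 15 comparisons (y axis) under 4 scalings. Neck lies below isthmus under each of them (-0.45 with TMM and -0.52 with total UMIs in dataset 2), while mature pit minus isthmus of dataset 2 lies at 0.05 with TMM and at -0.29 with total UMIs.

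The constitutive subunits moved together across the epithelium. Over the 14 epithelial clusters of dataset 2, the correlation of each constitutive subunit with the mean of the other ones had a median of 0.91, and 27 of 31 (87.1%) were above 0.8, against 3.13% of the 8906 genes with a mean of at least 10 CPM. The highest, at 0.97, were Psma6, Psmc2, Psmc6 and Psmd2, and the lowest was Psmd8 at 0.43. Psme3 (0.89) followed the same pattern, and Psme1 (-0.04), Psmb10 (0.03), Psmb9 (0.11) and Psme4 (0.19) did not. The clusters share pools, depth and the scaling, and these values describe them without a test.

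Other genes of the pathway were taken from lists of partners, regulators, ubiquitin genes and antigen processing genes. In neck against isthmus 10 of 16 partners fell and none rose, where 24.3% of all genes were lower and 26.4% higher. Among them were the proteasome deubiquitinases Uchl5 (29.4 and 31.4 CPM against 76.8 and 75.5, -1.32, SE 0.07) and Usp14 (54.7 and 53.4 against 95.1 and 97.1, -0.83, SE 0.07), Akirin2, which brings proteasomes into the nucleus (-0.45, SE 0.09), and Pomp, the maturation factor of the core (-0.32, SE 0.09). Of the 4 regulators Nfe2l2, the oxidative stress factor, fell (393 and 400 CPM against 828 and 874, -1.10, SE 0.09), and Nfe2l1 was not called (0.15). In mature pit cells Nfe2l2 was higher with TMM (1199 and 1176 CPM, 0.48, SE 0.09) and Nfe2l1 again not called (-0.09), while 3 of the 16 partners fell and 1 rose, against 20.1% and 17.9% of all genes. Of 8 genes of ubiquitin and its segregase 1 fell and none rose in mature pit cells, and in neck cells 2 fell and 1 rose, against the same shares of all genes.

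Of the 10 genes of the antigen processing list, 8 were higher in mature pit than in isthmus cells with TMM and none lower, where 17.9% of all genes were higher and 20.1% lower. Their median was 0.97, and that of all genes -0.07. Those higher included Nlrc5, the activator of MHC class I genes (3.63 and 4.28 CPM against 0.577 and 0.567, 2.78, SE 0.44), the peptide transporter Tap1 (27.7 and 29.2 against 9.70 and 9.94, 1.54, SE 0.18) and B2m, the light chain of MHC class I (749 and 746 against 372 and 369, 1.01, SE 0.08). In neck cells 6 of 10 were higher and none lower, against 26.4% and 24.3% of all genes, with a median of 0.35 against 0.06. Among them were Irf1 (46.05 and 65.8 CPM against 34.9 and 28.3, 0.83, SE 0.18) and B2m (0.78, SE 0.08), while Nlrc5 was not called (-0.29). In neck cells of dataset 1, 4 of 9 were higher and none lower, against 13.1% and 16.2% of all genes, among them Irf1 (48.1 and 66.7 CPM against 7.003 and 8.002, 2.93, SE 0.33). In corpus mature pit cells of dataset 1, with TMM, 2 of 9 were higher and none lower than in isthmus-like cells, against 20.6% and 22.3% of all genes. Against neck cells 1 of 9 was higher and 3 were lower there, against 21.1% and 22.1%.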

How the data were processed

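Single cells of mouse stomach were measured by Quartz-Seq2. The authors deposited UMI counts per gene and cell, raw and not normalized, made with Drop-seq tools 2.4.1, FASTX-Toolkit 0.0.14 and STAR 2.7.8a on GRCm39 with Gencode M27, and tables of the kept cells with their cluster, phase and percent of mitochondrial UMIs, of which the percent values are those the authors deposited. The strand setting of the counting is not given in the sources used here. The kept cells held at least 2500 detected genes.

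Counts were summed per cell type or cluster and pool and fitted with the quasi-likelihood test of edgeR 4.0.16 in R 4.3.3, with TMM scaling, filterByExpr and Benjamini-Hochberg adjustment over all genes tested. Genes were called at an adjusted p under 0.05, and the SE is the log2 fold divided by the root of F. The groups compared in dataset 2 shared 1 fit of 12 sums, and cluster and dataset 1 comparisons had their own. Since the authors made the clusters from the same counts, p-values describe how far apart clusters lie. With 2 pools a group, the spread behind them was estimated from the pools of all groups in a fit and shared in part between genes. The main fit had no term for the pool. The proteasome genes and lists were chosen with earlier results of these data known. Named were the subunits Psmb5 to Psmb10, Psme1 and Psme2 and, per comparison, the 4 genes with the largest called rise and fall (where each pool of the higher side had 10 UMIs or more and both pools moved one way), members called against the majority, and those at or near 0.

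The pools pair by design, since both cell types of a pair come from the same mice. In dataset 2, 15 of 15 pairs of types deviated together by a correlation above 0.1, and in dataset 1 0 of 21 did. The alternatives were DESeq2 1.42.0, RLE, total UMIs, no filter, a replicate block, the plate as unit, the sums without mitochondrial and the 20 most abundant genes, and leaving out each pool. The sorter's singlet gate was the only step against doublets, and no caller was run. Well barcodes recur across plates (145 of 296 in dataset 1 and 384 of 384 in dataset 2), but no group of cells had equal counts. Intervals are exact and, like the limit of 3 UMIs for a count of 0, cover counting error only. 1 gene of the antigen processing list is not reported here by name.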

Additional observations from a re-analysis of the deposited data

Results flagged for a closer look

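In pre-pit cells of pool T, 1 plate with 22 cells stood apart from the other plates of its pool, with 0.238 immunoproteasome UMIs per 10000 UMIs. This came from 1 of 24 outlier tests, and chance marks about 1 test in 20. Each test took the constitutive or the immunoproteasome share over the plates of 1 cell type and pool.
For several values the pools of dataset 2 all lay on one side of 0 and those of dataset 1 all on the other, and the difference between datasets was not tested. The values given are those of the pool nearest to 0, with TMM. For mature pit against isthmus or isthmus-like cells, the median of the constitutive subunits was 0.06 in dataset 2 and -0.30 in dataset 1, Psmb10 was 0.35 and -0.57, and Psme1 was 0.24 and -0.27. For neck against isthmus, Psme2 was -0.06 in dataset 2 and 0.08 in dataset 1. For mature pit against neck, Psmb8 was 0.63 and -1.40, and Psmb10 was 0.21 and -0.64. With total UMIs the dataset 2 median was also below 0, at -0.29.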

How the results depend on the processing

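Of the counts of called proteasome genes under the alternatives, 152 stayed within 1.5 times the reported count and 58 did not. Of the named genes' folds 970 were marked unchanged, 56 lost the call and 31 gained it. A further 10, called in either fit, changed sign. A fold called in neither fit was marked unchanged even where its sign differed. With a pool left out no call was made, and only a change of sign of a called gene was counted. Ratios of shares moved by less than the spread between pools without mitochondrial UMIs (4 of 4) and with summed UMIs (4 of 4). Levels of the share moved by more. The other values among the 22, which include the ratios of subunits, came from leaving out a pool. Their move could not exceed that spread, since with 2 pools each lies within it of the mean. Without mitochondrial UMIs the share was 49.7 per 10000 UMIs in place of 39.6 in parietal cells, above neck cells (43.8 in place of 41.4), and 62.1 in place of 59.4 in isthmus cells.
Scaling to total UMIs changed most counts. In dataset 2, higher and lower members were 3 and 29 for mature pit against isthmus, 22 and 3 for mature pit against neck, 0 and 13 for pre-pit, 0 and 47 for chief, 2 and 41 for parietal cells, and 3 and 7 for mature pit against cluster 11. The lower members were 3 for leukocytes and 0 for endothelial cells. In dataset 1 they were 0 and 38 for corpus mature pit against isthmus-like cells, 1 and 14 against neck, and 14 were lower for antrum mature pit. Among folds called with either scaling, Psmb6 in mature pit (-0.30), Psmb7 in mature pit against neck (-0.03) and Psmb5 in chief (-0.86) changed sign with total UMIs. So did Psme2 (-0.33), Psmb5 (-0.18) and Psmb7 (-0.47) in parietal cells. The rest were Psmb6 (-0.15) and Psmb7 (-0.31) in mature pit against cluster 11, and Psmb5 in corpus mature pit of dataset 1 (-0.03). TMM removes the offset between the libraries that total UMIs keep, which is how the alternatives are built.
Without the filter on low counts, the higher members were 4 for mature pit, 1 for pre-pit, 1 for chief and 6 for mature pit against cluster 11, and 0 and 6 in dataset 1 for corpus mature pit against isthmus-like and neck cells. The lower members were 0 for mature pit against neck, clusters 5 and 6, and mature pit against cluster 11. The cause was not tested.
With the plate as the unit, the lower members were 8 for mature pit, 8 for pre-pit (with 18 higher), 28 for parietal cells, 4 for clusters 5 and 6, 2 for mature pit against cluster 11 (with 17 higher), 33 for leukocytes and 34 for endothelial cells. In dataset 1 the higher members were 0 for neck, 3 for corpus mature pit against neck and 1 for antrum mature pit. The cause was not tested.
With DESeq2 the lower members were 0 for mature pit against neck and against cluster 11, 2 for leukocytes and 0 for endothelial cells. In dataset 1, DESeq2 gave 0 higher and 4 lower for corpus mature pit against isthmus-like cells, 0 higher and 8 lower for neck, 3 higher and 0 lower for corpus mature pit against neck, and 0 lower for antrum mature pit. With RLE size factors the lower members were 0 for mature pit against neck, 3 for leukocytes and 1 for endothelial cells, and antrum mature pit had 1 higher and 1 lower. The cause was not tested.
With the pool as a replicate block, 2 members were lower for mature pit against cluster 11 and 1 for antrum mature pit, and Psme2 was called in parietal cells, beside the calls given in the report for Psmb1, Psma5 and Psmg4 in mature pit and Psma7 in the antrum. Leaving out pool tube2 put the fold of Psme2 in corpus mature pit of dataset 1 at -0.02, and leaving out pool tube1 put it at 0.97. The 2 pools a group, the 26 corpus mature pit cells of dataset 1 and the small non-epithelial clusters limit what could be called.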

Other observations

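Endocrine cells, which stood in none of the tested comparisons, held Psmb8 UMIs in a larger share of cells than the lineages of the gland did. D cells had 18 Psmb8 UMIs in 14 of 31 cells, X/A cells 25 UMIs in 16 of 29 cells and ECL cells 26 UMIs in 19 of 53 cells, while isthmus cells had 234 UMIs in 180 of 1285 cells at a higher median depth. Per 100 Psmb5 UMIs, Psmb8 stood at 66.7 in both pools of D cells, at 88.9 in pool T of X/A cells (16 of 18 UMIs, and 9 of 18 in pool K) and at 8.33 and 23.5 in ECL cells, against 2.58 and 2.60 in isthmus cells. The counts behind the D cell values were 4 of 6 and 14 of 21 UMIs.
In dataset 1 the unnamed cluster 5-7, with 70 cells, had 76 Psmb8 UMIs to 47 of Psmb5 in pool tube1 and 306 to 79 in pool tube2, or 161.7 and 387 per 100. Its Psmb10 stood at 220.5 and 411 per 100 Psmb7 UMIs and its Psmb9 at 31.9 and 74.0 per 100 Psmb6 UMIs. High Psmb8 was not particular to this cluster. Per 100 Psmb5 UMIs and on fewer UMIs, Psmb8 stood at 333 and 517 in unnamed cluster 13 and at 300 and 667 in cluster 16. Unnamed clusters 9, 10, 11, 12 and 14 lay below cluster 5-7 in both pools.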
